A study of Mus musculus with 9 samples.

Results

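The cytosolic ribosomal protein genes of YAMC mouse intestinal cells are described here in 2 knockout clones of Cdk8 and in the cells they came from. Genes were taken by symbol: Rpl or Rps followed by a number, with an optional letter or l suffix, and Rplp0, Rplp1, Rplp2 and Rpsa. Pseudogene symbols ending in -ps and the Rps6k kinases were left out. The rule found 87 of the 28059 gene IDs in the table, 54 for the large subunit and 33 for the small subunit. Of these, 77 are the usual subunit genes and 10 carry the l suffix that marks a related copy, such as Rps27l beside Rps27. RefSeq lists 2 of the copies, Rpl6l and Rps4l, as pseudogenes. The symbol Rps3a1 is the gene commonly called Rps3a.

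YAMC is an established line of conditionally immortal mouse gut epithelium, whose name stands for young adult mouse colon, although the tissue label reads small intestine. The groups are Cdk8 KO clone 1, Cdk8 KO clone 19 and parental YAMC cells labelled wildtype, with 3 RNA-seq libraries each, all from cells grown at 32 degrees Celsius and taken in logarithmic growth. Cdk8, a kinase of the Mediator complex that links transcription factors to RNA polymerase II, was disrupted with CRISPR, and each knockout group is a single clone. No clone with intact Cdk8 was analysed here, so loss of Cdk8 and growth from a single cell cannot be told apart. Replicates are not stated to be separate cultures, so p-values measure the spread between these libraries.

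Ribosomes are built in the nucleolus from ribosomal RNA and one copy of most ribosomal proteins per particle, the small subunit reading the messenger RNA and the large subunit joining amino acids. Free ribosomal proteins made in excess are degraded, and the 5S particle with Rpl5 and Rpl11 can bind Mdm2 and so stabilize p53. Most ribosomal protein messages start with a run of pyrimidines, the terminal oligopyrimidine tract, through which mTORC1 and LARP1 control their translation, and most ribosomal protein genes also have many processed pseudogenes. In the gut epithelium, ribosome output follows growth signals such as Myc.

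The RefSeq start regions of 8 genes with some of the larger differences below are shown, since they let the annotated start of the message be read. At the start shown, 4 (Rpl34, Rpl7a, Rps10 and Rps18) hold a pyrimidine run and 4 do not. These starts are annotated and were not measured here, so the messages of the other 4 may still begin with such a run. Each line gives 20 bases before the annotated start and 20 bases from it, on the gene's own strand, and capitals mark an unbroken run of at least 8 pyrimidines near the start. For Rpl34 the start shown is the second that RefSeq lists. The windows, from RefSeq on GRCm38.p6, are Rpl26 at chr11:68901546-68901585 (plus strand), Rps3a1 at chr3:86142649-86142688 (minus strand), Rpl34 at chr3:130730318-130730357 (minus strand), Rpl7a at chr2:26910787-26910826 (plus strand), Rps10 at chr17:27635225-27635264 (minus strand), Rps18 at chr17:33955646-33955685 (minus strand), Rps15 at chr10:80292411-80292450 (plus strand) and Rps28 at chr17:33824543-33824582 (minus strand).
Rpl26: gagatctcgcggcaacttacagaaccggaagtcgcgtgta
Rps3a1: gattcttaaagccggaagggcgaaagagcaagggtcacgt
Rpl34: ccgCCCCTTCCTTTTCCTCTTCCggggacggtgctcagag
Rpl7a: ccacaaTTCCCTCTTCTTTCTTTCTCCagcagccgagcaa
Rps10: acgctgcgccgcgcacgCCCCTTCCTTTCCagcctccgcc
Rps18: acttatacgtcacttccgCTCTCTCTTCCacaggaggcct
Rps15: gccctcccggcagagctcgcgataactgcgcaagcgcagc
Rps28: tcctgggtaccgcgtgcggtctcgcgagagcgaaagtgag

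Promoters of 250 bases before and 50 after the start were listed for 65 of the 87 genes, with 77 starts. A pyrimidine run of 8 bases near the start stood at 23 of these 77 starts (29.9%), against 7.89% of all 32851 listed mouse promoters, and the purine run that mirrors it stood at 2.6% against 8.89%. CCGGAAG, searched on both strands over the whole window, was in 35.1% against 8.86%, AAGATGG in 15.6% against 6.34%, and GGGCGG in 59.7% against 35.7%. CCGGAAG is a core that ETS factors bind, AAGATGG belongs to the YY1 motif and GGGCGG is the GC box of Sp1, and a match describes the letters only. Of the tested genes with a listed start and not on chromosome 18, the 23 with a run had 8 called higher and 5 called lower in clone 1, against 16 higher and 8 lower of the 39 without it, with calls as defined below. In clone 19 the counts were 6 higher and 6 lower of the 23, against 9 higher and 10 lower of the 39, and in clone 19 minus clone 1 they were 3 and 2 against 4 and 9. Over all tested genes, 39.8% were called higher and 32.6% lower in clone 1, 36.7% and 32.3% in clone 19, and 18.5% and 24.5% between the clones. Both the motifs and the length of the run were chosen after the gene values had been seen. Genes counted as without a run lack it at the listed starts only.

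The authors' table gives RPKM, read numbers scaled to the length of each gene and to the mapped reads of each library. Each library held 17974 to 18907 IDs above 0, and depth, roughly estimated from values that look like 1 read, lay between 21000000 and 37700000 reads. Libraries of 1 group correlated at 0.997 to 0.998 and libraries of different groups at 0.963 to 0.993 on the log2 scale. Cdk8 itself had 10.3, 11.1 and 11.6 RPKM in clone 1, 10.5, 10.3 and 10.3 RPKM in clone 19, against 17.5, 17.7 and 17.5 RPKM in parental cells, so its RNA was lower but present in both clones. Cdx2, a defining intestinal factor, was listed at 0 in every library, and Epcam did not exceed 0.251 RPKM, so 2 markers of gut epithelium were absent or nearly so. Krt8 averaged 224 ± 5.58 RPKM in clone 1, 206 ± 3.26 RPKM in clone 19 and 130.1 ± 0.694 RPKM in parental cells, and the mesothelial marker Wt1 158 ± 1.10 RPKM, 158 ± 2.12 RPKM and 80.1 ± 2.14 RPKM in the same order (SD, n = 3 each). Both were higher in the 2 clones, but 2 other mesothelial markers were called lower in clone 1 and clone 19, Krt7 (-2.11 and -0.56 on the log2 scale) and Msln (-0.43 and -0.14). Their part in the ribosomal protein results was not tested. In bulk RNA, fewer cells of a type and less RNA per cell cannot be told apart. Differences were tested with limma on log2(RPKM + 0.5) over the 12568 genes with at least 1 RPKM in at least 3 libraries, and a gene is called at a Benjamini-Hochberg adjusted p under 0.05. All log2 differences are on that scale, and fold changes of genes at a few RPKM are understated by it.

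Of the 87 genes, 82 passed this filter, 50 of the large subunit and 32 of the small. The 5 that did not were all l-suffix copies. Rpl8, a protein next to the peptidyl transferase centre, was the most abundant at 1331, 1353 and 1332 RPKM in clone 1, 1341, 1339.5 and 1329.8 RPKM in clone 19, against 1289, 1322 and 1331 RPKM in parental cells. Rpl4, which lines the tunnel through which the new protein leaves, had 546, 558 and 559.9 RPKM in clone 1, 499.7, 505 and 501 RPKM in clone 19, against 535, 539 and 538 RPKM in parental cells. Rps15 and Rpl13a, with 340.4 ± 4.81 RPKM and 329.9 ± 10.3 RPKM in parental cells (SD, n = 3), were also among the highest. The 3 groups overlapped or nearly met in Rpl8, and Rpl4 is taken up below. At the other end of the usual genes, Rpl21 had 2.16, 1.85 and 2.23 RPKM in clone 1, 2.26, 2.23 and 1.76 RPKM in clone 19, against 2.29, 2.50 and 2.26 RPKM in parental cells, and Rpsa, the small-subunit protein also known as the laminin receptor precursor, had 2.91, 3.49 and 3.13 RPKM in clone 1, 2.58, 2.33 and 2.599 RPKM in clone 19, against 2.72, 2.51 and 2.84 RPKM in parental cells. Rpl19, Rpl36a and Rps13 came next, with 2.97 ± 0.338 RPKM, 3.23 ± 0.237 RPKM and 3.42 ± 0.823 RPKM in parental cells. Although most of these proteins occur once in a ribosome, their messages were listed at 2.35 to 1314 RPKM (parental means, 77 usual genes, median 17.3), and 24 of the 77 lay under 10 RPKM while 22 reached 50 RPKM.

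**Figure D1:**
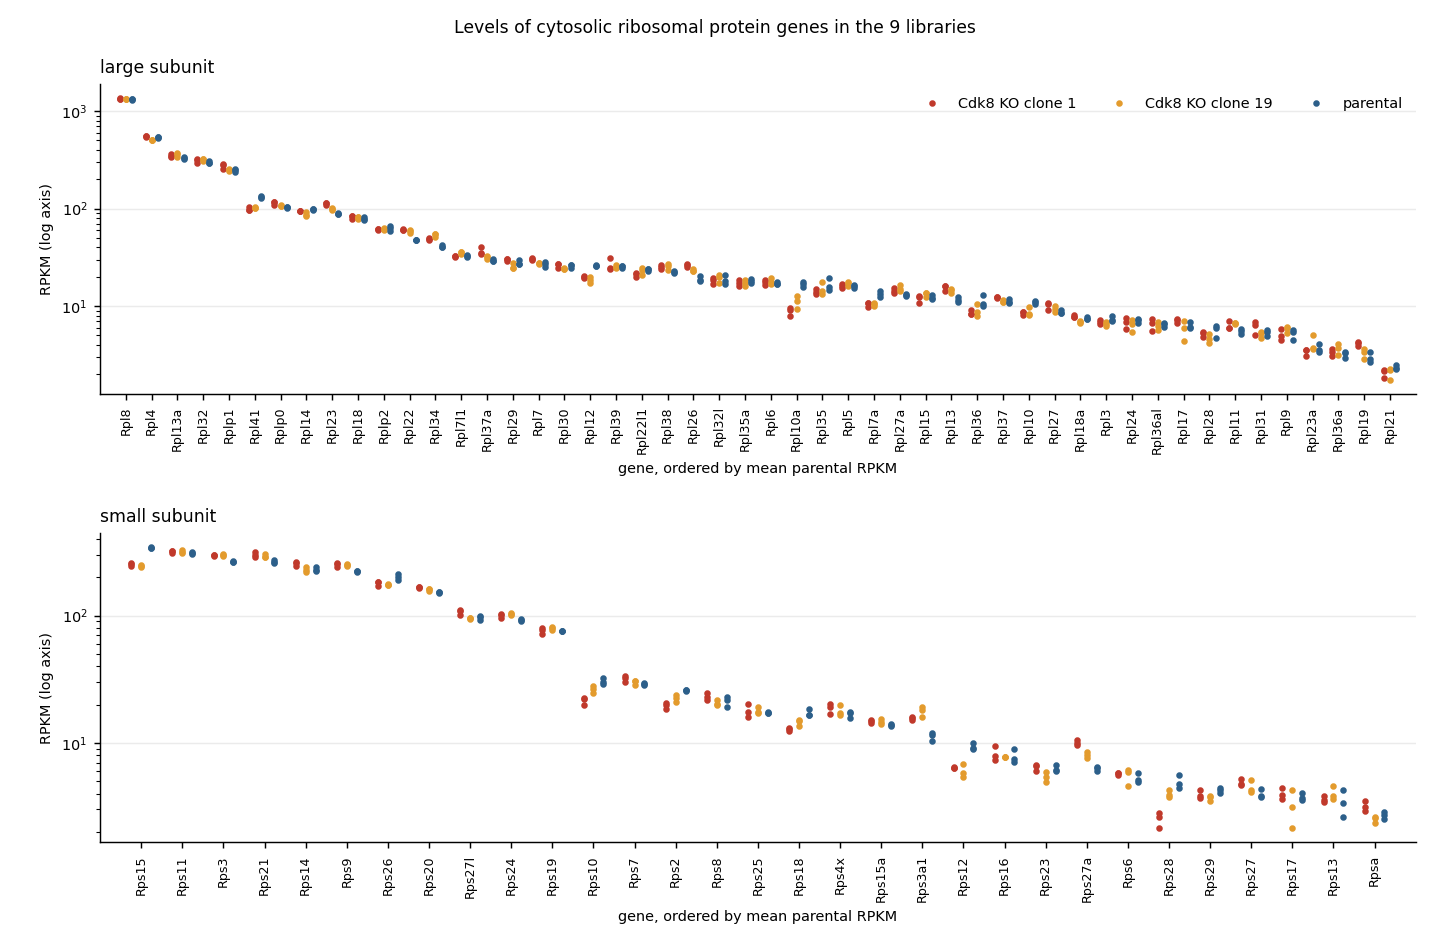
RPKM (log axis) of the tested genes reported here in each of the 9 libraries, large subunit above and small subunit below, genes ordered by mean parental RPKM and each point 1 library. Levels span 2.35 (Rpl21) to 1314 RPKM (Rpl8) in parental cells, and the spread between genes is far wider than that between groups.

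The order of levels went with how much of each transcript is shared with other genes. For each gene, 1 transcript of GENCODE M21 was divided into all 50-base windows, and a window counted as unique when no transcript of another gene held it on either strand. Among the 77 usual genes, 76 shared a window with an annotated pseudogene (median 8 pseudogenes, at most 119, for Rpl7a). The 30 genes with at least 50% unique windows had a median of 95.2 RPKM, and the 47 below 50% had 11.7 RPKM. All 18 genes below 20% lay at or under 17.3 RPKM. Across the 77 genes, level and unique share had a Spearman coefficient of 0.583 (0.632 with 75-base windows, lengths chosen after the values were seen), level and number of pseudogenes one of -0.532, and level and transcript length one of 0.0866, all given as descriptions across genes. Whether the authors dropped reads that map to several places is not given in the sources used here, so the low RPKM of a gene such as Rps27, with 1.35% unique windows, cannot be read as a low message level. Of 52 symbols with -ps that the rule left out, 11 averaged at least 1 RPKM over the 9 libraries. The highest was Rplp2-ps1 at 56.5 RPKM, beside Rplp2 at 62.1 RPKM. Of 6 other similar symbols left out, 3 did so, the highest being Rpl37rt at 79.1 RPKM, beside Rpl37 at 11.55 RPKM. The sums given below do not include these entries. Differences between groups compare the same gene with itself, and the share of a gene's reads that comes from other copies was not tested.

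**Figure D2:**
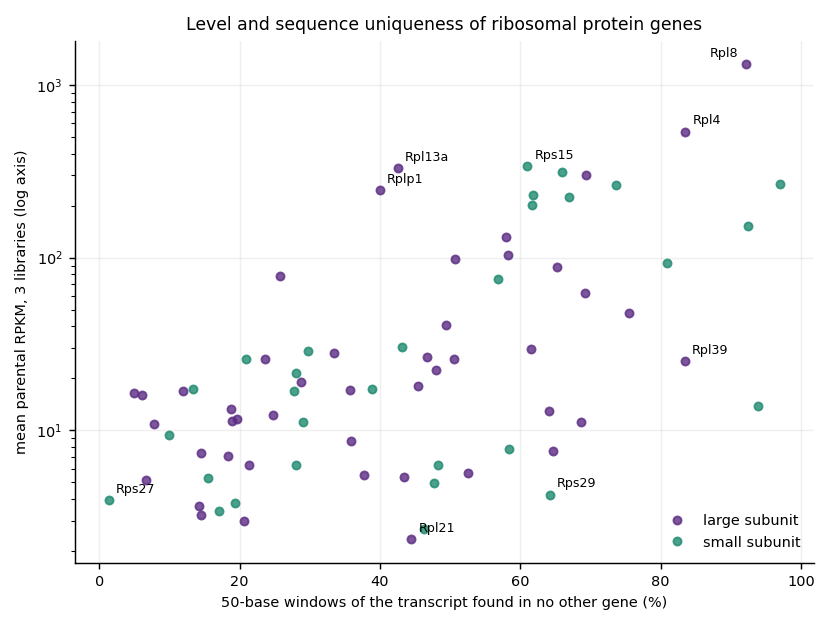
Mean parental RPKM (log axis, 3 libraries) of the usual genes reported here against the share of its 50-base transcript windows found in no other gene, coloured by subunit. Genes under 20% unique all sit at or under 17.3 RPKM, while Rpl8 and Rpl4, with 92.1% and 83.5%, are near the top.

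Clone 1 differed from parental cells in 43 of the 82 tested genes, 29 higher and 14 lower, which is 52.4% against 72.4% of all tested genes (39.8% called higher and 32.6% called lower). No gene reached a log2 difference of 1, and 4 of the called genes passed 0.5 on the log2 scale. The median log2 difference was 0.053 over the 82 genes and 0.035 over all tested genes. The largest increase was in Rps27a, whose message encodes ubiquitin fused to a small-subunit protein: 9.65, 10.5 and 9.95 RPKM in clone 1, 8.42, 8.03 and 7.56 RPKM in clone 19, against 6.03, 6.29 and 6.48 RPKM in parental cells. All 6 knockout libraries lay above all parental ones, and clone 1 above clone 19. The log2 difference was 0.64 ± 0.049 (SE), adjusted p = 4.62e-07 in clone 1 and 0.33 ± 0.049 (SE), adjusted p = 1.13e-04 in clone 19 (limma). Rps3a1, on the platform of the small subunit, had 15.6, 15.0 and 16.1 RPKM in clone 1, 19.1, 15.9 and 18.04 RPKM in clone 19, against 10.3, 11.9 and 11.5 RPKM in parental cells. Here too no knockout library overlapped a parental one, with log2 differences of 0.46 ± 0.067 (SE), adjusted p = 9.67e-05 in clone 1 and 0.63 ± 0.067 (SE), adjusted p = 8.33e-06 in clone 19 (limma). Rpl26, near the exit of the protein tunnel, had 25.4, 26.3 and 26.8 RPKM in clone 1, 23.8, 22.8 and 23.2 RPKM in clone 19, against 18.03, 20.5 and 18.6 RPKM in parental cells. Its 3 groups were fully separate in the order clone 1, clone 19, parental, with log2 differences of 0.45 ± 0.043 (SE) and 0.29 ± 0.043 (SE). Rpl19, which forms a bridge between the subunits, had 3.90, 4.18 and 4.30 RPKM in clone 1, 2.83, 3.35 and 3.60 RPKM in clone 19, against 3.34, 2.68 and 2.89 RPKM in parental cells. It was called higher in clone 1 (0.42 ± 0.087 (SE), adjusted p = 0.00125, limma), and its clone 19 libraries overlapped the parental ones (0.12 ± 0.087 (SE), adjusted p = 0.262). Rpl13 and Rpl22 completed the 6 largest increases. Rpl22, a large-subunit protein that mice can live without, had 60.5, 61.5 and 60.7 RPKM in clone 1, 60.1, 58.6 and 55.9 RPKM in clone 19, against 48.0, 47.9 and 47.7 RPKM in parental cells, and Rpl13 had 15.9, 16.2 and 14.3 RPKM in clone 1, 14.5, 15.1 and 13.7 RPKM in clone 19, against 11.1, 12.3 and 11.6 RPKM in parental cells. Both were above parental in every knockout library. Of these 6 genes Rpl22 is 75.5% unique by 50-base windows, and the other 5 lie between 19.7% and 29.0%.

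The largest decrease in clone 1 on the log2 scale was in Rpl10a, the protein of the mobile L1 stalk through which spent transfer RNA leaves. It had 7.88, 9.59 and 9.04 RPKM in clone 1, 12.7, 11.3 and 9.23 RPKM in clone 19, against 17.8, 15.7 and 17.0 RPKM in parental cells. The clone 1 and clone 19 ranges met, and both lay wholly below parental, with log2 differences of -0.90 ± 0.10 (SE), adjusted p = 1.21e-05 in clone 1 and -0.59 ± 0.10 (SE), adjusted p = 3.42e-04 in clone 19 (limma). Rps28, close to the exit channel of the messenger RNA, had 2.62, 2.80 and 2.13 RPKM in clone 1, 3.74, 4.29 and 3.93 RPKM in clone 19, against 4.41, 5.61 and 4.79 RPKM in parental cells. The 3 groups did not overlap, clone 1 being lowest, and the log2 differences were -0.85 ± 0.098 (SE), adjusted p = 1.34e-05 and -0.27 ± 0.098 (SE), adjusted p = 0.0277 (limma, clone 1 and clone 19 against parental). Rps10, Rps12, Rps15 and Rps18 were the other 4 largest. Rps15, which in human cells is needed to export the small subunit from the nucleus, had 245, 261 and 256 RPKM in clone 1, 249, 246 and 242 RPKM in clone 19, against 337, 338 and 346 RPKM in parental cells, with a log2 difference of -0.42 ± 0.024 (SE), adjusted p = 4.50e-08 in clone 1 (limma) and 61.0% unique windows. Rps12, a small-subunit protein of the head, had 6.397, 6.44 and 6.32 RPKM in clone 1, 6.77, 5.44 and 5.76 RPKM in clone 19, against 9.04, 9.98 and 9.16 RPKM in parental cells. The knockout libraries of both genes were all below the parental ones. Rps10 had 22.5, 22.3 and 19.7 RPKM in clone 1, 28.0, 26.3 and 24.8 RPKM in clone 19, against 29.1, 30.2 and 32.1 RPKM in parental cells, and Rps18 had 13.1, 12.9 and 12.5 RPKM in clone 1, 13.5, 14.9 and 15.0 RPKM in clone 19, against 16.7, 16.6 and 18.5 RPKM in parental cells. Both were lowest in clone 1 with clone 19 in between, and their groups did not overlap.

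**Figure D3:**
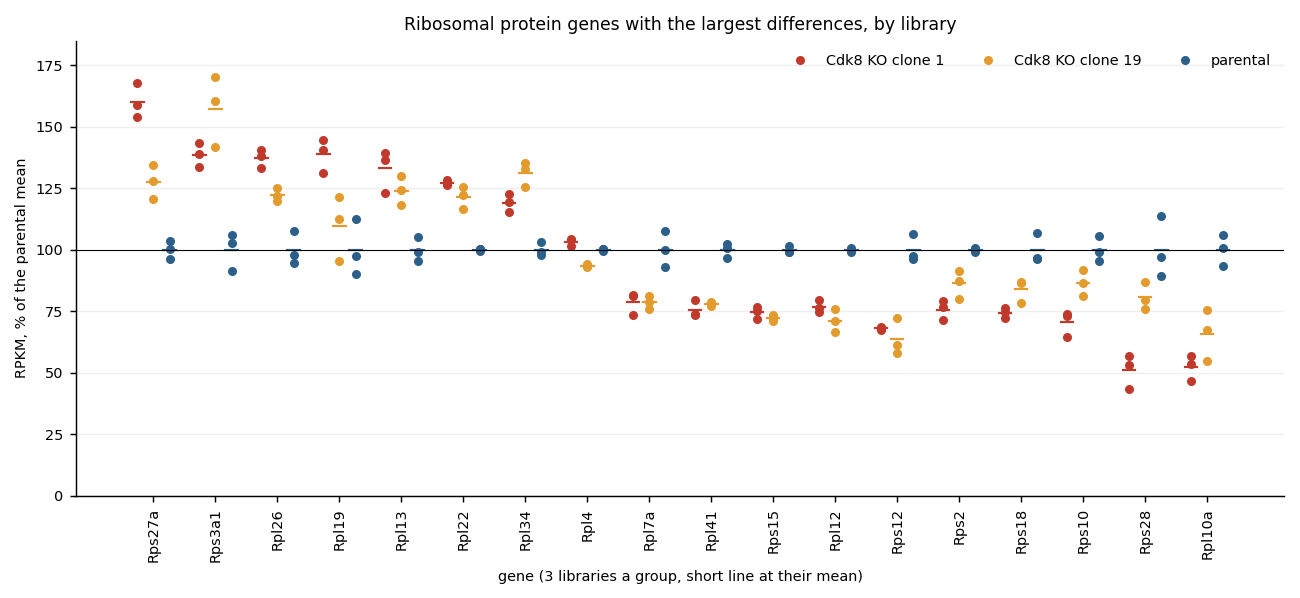
RPKM as percent of the parental mean in each library for 18 genes, those with the largest differences and Rpl4, which was called in opposite directions (points, libraries; short lines, group means of 3). Clone 1 means run from 51.0% for Rps28 and 52.5% for Rpl10a to 160.1% for Rps27a; clone 19 means run from 63.8% for Rps12 to 157.4% for Rps3a1.

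Clone 19 differed from parental cells in 41 of the 82 genes, 19 higher and 22 lower (against 69.0% of all tested genes, 36.7% higher and 32.3% lower). The median log2 difference was 0.024, against 0.020 over all tested genes. The same parental libraries serve both comparisons, so the clones' values are only set side by side. Over all tested genes 72.4% were called in clone 1 and 69.0% in clone 19. The share of all tested genes called in both is not given, so nothing is read from the joint counts that follow. Of the 82 genes, 15 were called higher and 13 lower against parental in both, 27 in neither, 13 higher and 1 lower in clone 1 alone and 4 higher and 8 lower in clone 19 alone. The remaining gene, Rpl4, was called in opposite directions, with the values given above: 0.046 ± 0.015 (SE), adjusted p = 0.0166 in clone 1 and -0.097 ± 0.015 (SE), adjusted p = 1.52e-04 in clone 19 (limma). Every clone 19 library of Rpl4 was below, and every clone 1 library above, the parental ones, but the clone 1 difference was negative under 3 other scalings and with neighbouring genes subtracted. Among the decreases, Rpl12 of the stalk base had 19.4, 19.8 and 20.6 RPKM in clone 1, 19.6, 17.3 and 18.4 RPKM in clone 19, against 25.7, 26.1 and 25.9 RPKM in parental cells. Rpl41, the smallest ribosomal protein, had 96.4, 104 and 97.0 RPKM in clone 1, 103, 102 and 101 RPKM in clone 19, against 127, 134 and 132 RPKM in parental cells, and Rpl7a, another large-subunit protein, had 10.8, 9.78 and 10.8 RPKM in clone 1, 10.8, 10.1 and 10.4 RPKM in clone 19, against 13.2, 12.3 and 14.3 RPKM in parental cells. In these 3 genes clone 1 and clone 19 lay at similar levels and wholly below parental. Rpl34 had the second largest increase in clone 19, with 48.8, 47.2 and 50.2 RPKM in clone 1, 51.2, 54.3 and 55.2 RPKM in clone 19, against 42.1, 40.0 and 40.4 RPKM in parental cells and a log2 difference of 0.39 ± 0.034 (SE), adjusted p = 1.55e-06 (limma). All clone 19 libraries were above the clone 1 libraries, and these above the parental ones.

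Counts for the subunits are given side by side, without a test. In clone 1, 16 of 50 large-subunit genes were called higher and 7 lower, and 13 of 32 small-subunit genes higher and 7 lower. In clone 19 the counts were 11 higher and 13 lower of the large, and 8 higher and 9 lower of the small. Over all tested genes, 39.8% were called higher and 32.6% lower in clone 1, and 36.7% and 32.3% in clone 19. Called in either direction in clone 1 were 46.0% of the large and 62.5% of the small, against 72.4% of all tested genes. In clone 19 these were 48.0% and 53.1%, against 69.0%. Median log2 differences were 0.042 (large) and 0.088 (small) in clone 1, and 0.020 and 0.035 in clone 19. Per library, the small-subunit median minus the large-subunit median was 0.052, 0.082 and 0.011 in clone 1, 0.026, 0.010 and -0.035 in clone 19, and -0.0073, -0.012 and 0.017 in parental cells, each gene taken against its parental mean. The 3 ranges overlapped. Summed RPKM of the large-subunit genes was 1.27 to 1.30 times that of the small-subunit genes in clone 1, 1.26 to 1.28 times in clone 19, and 1.27 to 1.28 times in parental cells. All 87 genes together held 1.97 ± 0.0283% of summed RPKM in clone 1, 1.93 ± 0.0214% in clone 19 and 2.02 ± 0.0252% in parental cells (SD, n = 3 each). Their summed RPKM itself was 7170.4 ± 147, 7021 ± 83.7 and 6972 ± 109 in the same order. The share in clone 19 lay wholly below parental, and that in clone 1 met it at 1 library. All genes together summed to a higher RPKM in the clones, 364360.0 in clone 1 and 363140.0 in clone 19, against 345800.0 in parental cells. With every library scaled to the same summed RPKM, 16 genes were called higher and 21 lower in clone 1, and 13 higher and 25 lower in clone 19. In clone 1 the direction that prevails thus turned with this scaling, and in clone 19 it did not. Over all tested genes that scaling likewise moved the calls, of which 43.45% were higher in clone 1 and 40.98% in clone 19, against 55% and 53.19% without it. Quantile normalization gave 20 higher and 22 lower in clone 1, 16 higher and 23 lower in clone 19, and 9 higher and 15 lower in clone 19 minus clone 1, while 52.48%, 51.16% and 46.16% of the calls over all genes were higher in these comparisons. Median-ratio scaling did not turn the direction in clone 1, with 25 higher and 16 lower. In clone 19 it gave 17 higher and 22 lower. Over all genes 49.97% and 49.69% of the calls were higher with it.

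Genes called in the same direction often lay on the same chromosome. Of the 14 genes called lower in clone 1, 6 lie on chromosome 17, 4 on chromosome 10 and 2 on chromosome 2. Chromosome 17 holds 7 of the tested genes, Rpl10a, Rpl36, Rpl7l1, Rps10, Rps18, Rps2 and Rps28, and 6 of them, all but Rpl7l1, were called lower in both clones. Their median log2 difference in clone 1 was -0.41, against -0.26 for the 580 other tested genes of that chromosome, of which 68.1% were called lower. In clone 19 it was -0.25, against -0.11 for the 580 other tested genes, of which 46.5% were called lower. On chromosome 10, Rpl41, Rps12, Rps15 and Rps26 were called lower in both clones, and Rpl32l in neither. Of these 5, Rps26 was called higher in both with neighbouring genes subtracted (0.18 and 0.13, as described below). The median of these 5 genes was -0.40, against -0.30 for the 552 other tested genes in clone 1 and -0.36, against -0.29 for the 552 other tested genes in clone 19, and 75.7% and 75.5% of those other genes were called lower in clone 1 and in clone 19. Increases were grouped as well. On chromosome 11, which carries Rps27a, Rpl26, Rpl23 and Rpl19, 6 of 7 genes were called higher in clone 1 and 4 of 7 in clone 19, with medians of 0.34, against 0.15 for the 989 other tested genes in clone 1 and 0.17, against 0.12 for the 989 other tested genes in clone 19. Of those other genes 55.4% were called higher in clone 1 and 52.5% in clone 19, so the share in clone 19 is near that of the chromosome. On chromosome 3, Rps3a1 and Rpl34 were called higher in both clones, and the other tested genes there had medians of 0.28 in clone 1 and 0.30 in clone 19. Chromosome 7 holds 14 tested genes, the most of any, and they moved little, with medians of 0.070 in clone 1 and 0.072 in clone 19 beside 0.018 and 0.030 for the other genes. On chromosome 9, 4 of 7 genes were called higher in clone 1 and 3 of 7 lower in clone 19, and the median of the other genes was 0.069 in clone 1 and -0.084 in clone 19. These counts are near the chromosome's own, 44.1% of the other genes being called higher in clone 1 and 46.7% lower in clone 19. These groupings were looked for after the gene values were seen, and genes of a chromosome share it, so no test is given. What moves whole chromosomes was not tested.

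**Figure D4:**
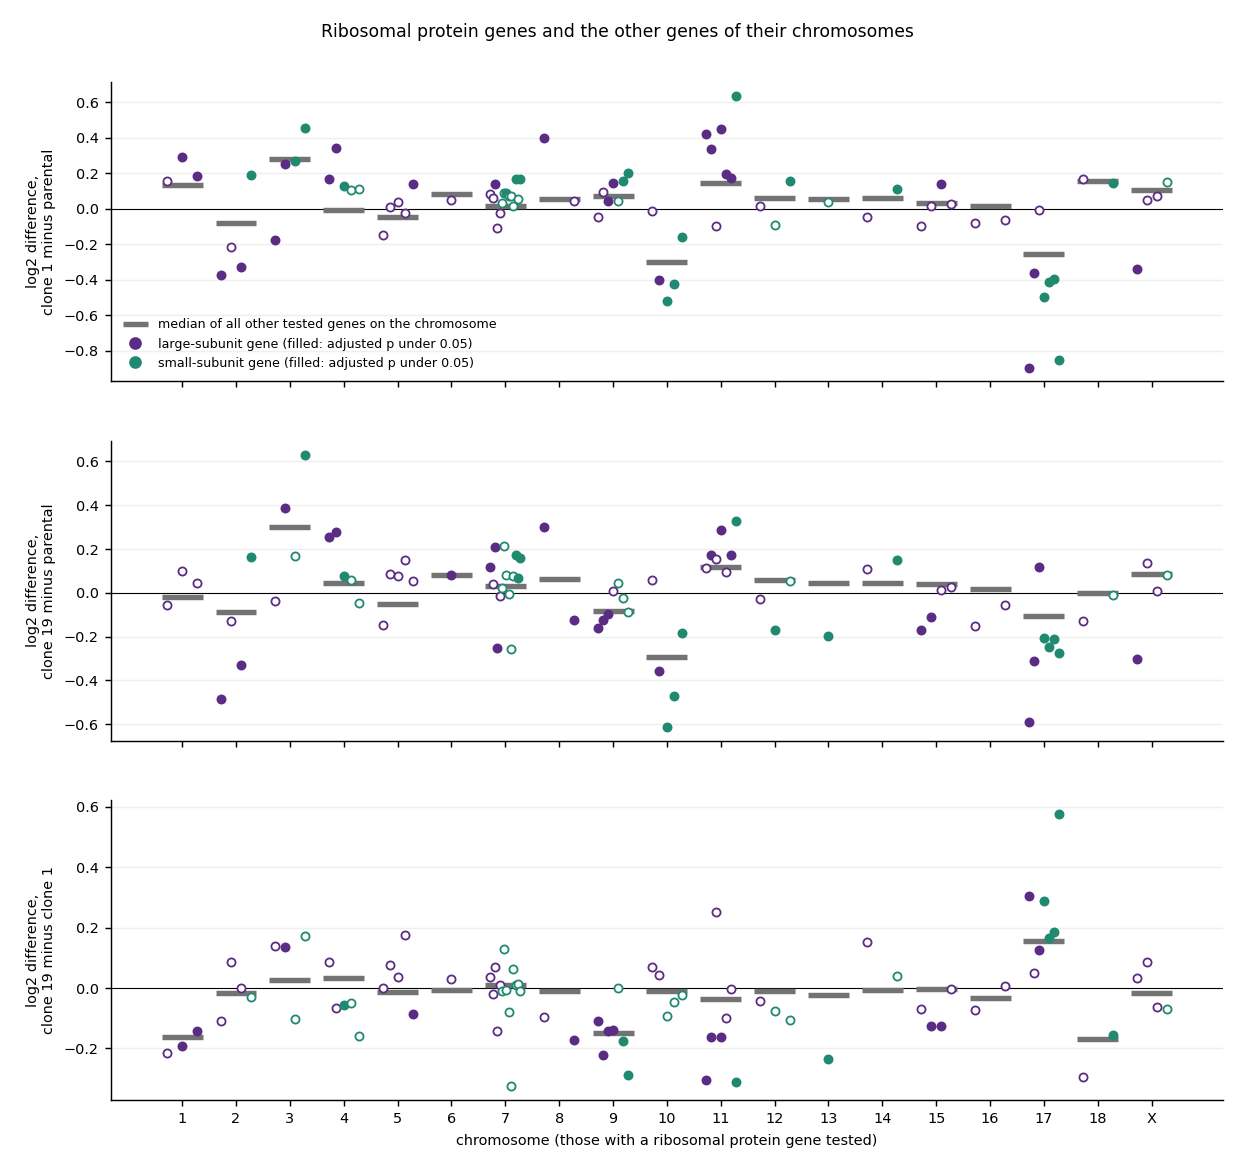
Log2 difference of each tested ribosomal protein gene by chromosome, for each clone against parental cells and for the difference between the clones (points coloured by subunit, filled where the limma adjusted p is under 0.05), with a grey bar at the median of the other tested genes of the chromosome. Against parental cells, most points lie below 0 with the bar on chromosomes 10 and 17 and above 0 with it on chromosomes 3 and 11, and between the clones most on chromosome 17 lie above 0.

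The same held at closer range. For each gene the 50 nearest tested genes on its chromosome that are not ribosomal protein genes were taken, by GRCm38 positions from the annotation. Their median log2 difference was set beside its own. Across the 82 genes the 2 values had a Pearson coefficient of 0.724 in clone 1, 0.681 in clone 19 and 0.631 between the clones, given as descriptions since near genes share neighbours. Some genes matched their surroundings closely. Rpl13 differed by 0.40 in clone 1 where its neighbours had a median of 0.39, Rpl22 by 0.34 beside 0.28, Rpl12 by -0.37 beside -0.41, and Rps2, which forms part of the entry channel of the messenger RNA, by -0.40 beside -0.37. For a further fit, neighbours were the 50 tested genes around each gene in chromosome order, ribosomal protein genes included, so they differ somewhat from those above. Their median deviation was subtracted in every library before that fit. Of the 29 genes called higher in clone 1, 14 were then still called higher, and 8 of the 14 called lower were still lower. In clone 19 these were 13 of 19 and 12 of 22. All calls counted, 21 were then higher and 11 lower in clone 1, and 20 higher and 14 lower in clone 19. Higher calls thus made up 65.62% and 58.82%, beside 50.69% and 50.55% of the calls over all tested genes. The direction that prevails in clone 19 turned with the subtraction. The largest called differences after subtraction were, in clone 1, those of Rps28 (-0.60, adjusted p = 2.89e-04, limma), Rpl10a (-0.53, adjusted p = 5.02e-04), Rpl22l1 (-0.49), Rpl19 (0.39), Rps27a (0.36) and Rpl10 (-0.36). In clone 19 they included those of Rpl10a (-0.39), Rpl22l1 (-0.38), Rps12 (-0.36), Rps3a1 (0.36) and Rpl10 (-0.34). Rpl10, which joins in the last step of large-subunit maturation, had 8.12, 8.70 and 8.60 RPKM in clone 1, 9.77, 8.03 and 8.37 RPKM in clone 19, against 11.2, 10.4 and 10.95 RPKM in parental cells, with every knockout library below every parental one and neighbours on the X chromosome at 0.027 in clone 1 and 0.058 in clone 19. Only 7.87% of its transcript windows were unique, 11.9% of those of Rpl10a, 9.89% of those of Rps12 and 47.7% of those of Rps28, and how much of their reads belongs to copies elsewhere was not tested.

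**Figure D5:**
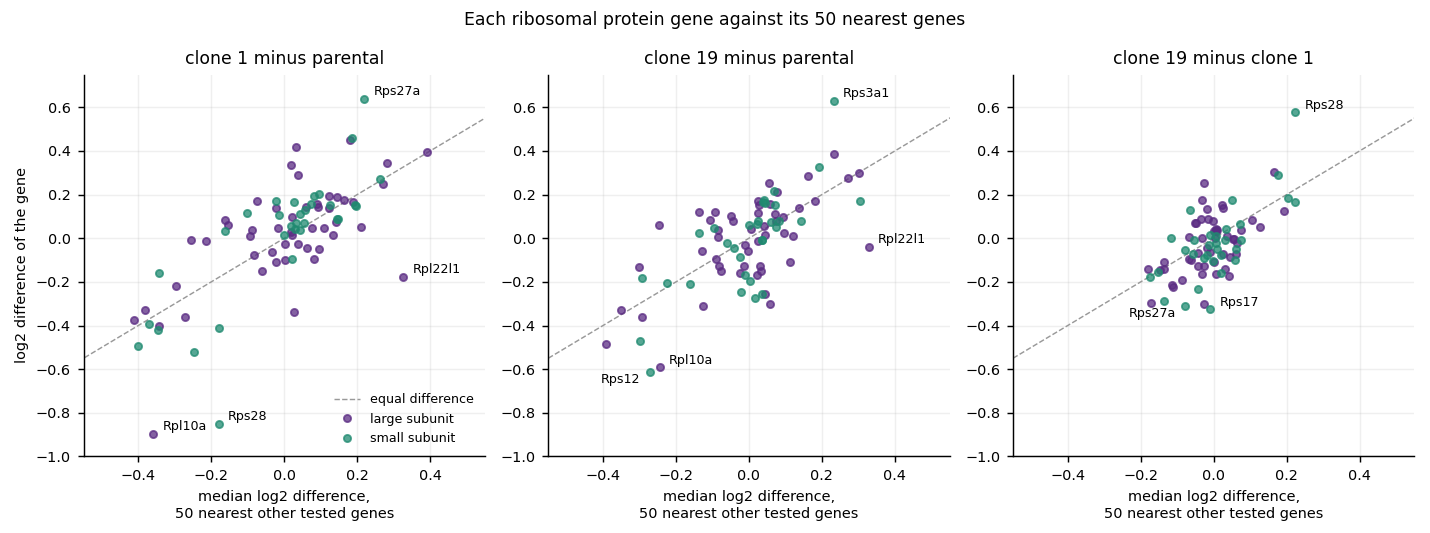
Log2 difference of each of the 82 tested genes against the median log2 difference of its 50 nearest other tested genes, in the 3 comparisons (points, genes, coloured by subunit; dashed line, equal difference). Points spread along the line, with Pearson coefficients of 0.724, 0.681 and 0.631, and Rps28, Rpl10a and Rpl22l1 lie far below it in clone 1.

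Between the knockout clones, clone 19 differed from clone 1 in 26 of the 82 genes, 7 higher and 19 lower, which is 31.7% against 43.0% of all tested genes (18.5% higher and 24.5% lower). Of the 7 higher in clone 19, 6 lie on chromosome 17, and 3 of these, Rps28, Rpl10a and Rps10, had the largest differences among genes called higher in clone 19. Rps28 had 3.74, 4.29 and 3.93 RPKM in clone 19 against 2.62, 2.80 and 2.13 RPKM in clone 1, without overlap, a log2 difference of 0.58 ± 0.098 (SE), adjusted p = 8.91e-04 (limma). Rps10 (0.29 ± 0.058 (SE), adjusted p = 0.00256) and Rpl10a (0.30 ± 0.10 (SE), adjusted p = 0.0331) went the same way, the second with ranges that met, at 9.23 RPKM in clone 19 and 9.59 RPKM in clone 1. Rps2 (0.18) and Rps18 (0.16) followed, and the median of the other genes of the chromosome was 0.15. Rpl34 on chromosome 3 was the other gene higher in clone 19 (0.14 ± 0.034 (SE), adjusted p = 0.00776, limma). The largest decreases were in Rps27a (-0.31 ± 0.049 (SE), adjusted p = 5.60e-04), Rpl19 (-0.30 ± 0.087 (SE), adjusted p = 0.0169), Rpsa (-0.29 ± 0.071 (SE), adjusted p = 0.00744) and Rps23, a protein of the decoding centre (-0.23 ± 0.066 (SE), adjusted p = 0.0154, all limma). Rps23 had 4.97, 5.40 and 5.88 RPKM in clone 19 against 6.75, 6.07 and 6.53 RPKM in clone 1, again without overlap. On chromosome 9, 6 of 7 genes were lower in clone 19 than in clone 1, among them Rpl4, Rplp1 and Rps27l, and the median of the other genes there was -0.15, 60.0% of them being called lower. With neighbours subtracted, 2 genes were called higher in clone 19, Rps28 (0.38) and Rpl34 (0.15), and 12 lower. Higher calls were then 14.29% of these, beside 49.52% of the calls over all tested genes. Without replicate 2 of clone 1 the count higher in clone 19 was 11, or 44.0% of its calls, beside 43.93% over all tested genes.

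The l-suffix copies differed widely in level. Rpl10l and Rpl39l, known from the testis, were listed at 0 in every library, and Rpl3l, the copy of heart and skeletal muscle, did not exceed 0.0569 RPKM. Rps4l reached at most 0.0338 RPKM and Rpl6l at most 0.390 RPKM. Of the 5 copies that were tested, Rps27l, a target of p53, was the most abundant with 101, 109 and 111 RPKM in clone 1, 95.2, 95.4 and 93.3 RPKM in clone 19, against 91.8, 98.6 and 98.0 RPKM in parental cells. Its clone 1 libraries lay above the others, and its log2 differences were 0.15 ± 0.036 (SE), adjusted p = 0.00247 in clone 1 and -0.022 ± 0.036 (SE), adjusted p = 0.593 in clone 19 (limma). Rps27, the gene it is named after, had 5.16, 4.74 and 4.70 RPKM in clone 1, 5.15, 4.27 and 4.14 RPKM in clone 19, against 3.82, 4.31 and 3.73 RPKM in parental cells, called higher in clone 1 (0.27 ± 0.079 (SE), adjusted p = 0.00981) and not in clone 19 (0.17 ± 0.079 (SE), adjusted p = 0.0783). The higher listed level of the copy goes with its larger unique share, 77.6% of windows beside 1.35%. Rpl22l1, whose message the Rpl22 protein represses in mouse cells, had 21.7, 19.8 and 21.1 RPKM in clone 1, 24.6, 20.98 and 23.7 RPKM in clone 19, against 22.9, 24.0 and 24.0 RPKM in parental cells. It was called lower in clone 1 (-0.18 ± 0.054 (SE), adjusted p = 0.0116, limma), and not called in clone 19 (-0.038 ± 0.054 (SE), adjusted p = 0.548), while Rpl22 was called higher in both (0.34 ± 0.026 (SE), adjusted p = 4.01e-07 in clone 1 and 0.28 ± 0.026 (SE), adjusted p = 2.62e-06 in clone 19). The 50 genes nearest to Rpl22l1 on chromosome 3 had medians of 0.33 in clone 1 and 0.33 in clone 19, so it stood below its surroundings in both. With neighbouring genes subtracted it was at -0.49 in clone 1 (adjusted p = 1.20e-05) and -0.38 in clone 19 (adjusted p = 1.10e-04, limma). The same subtraction left Rpl22 called in neither clone, at 0.022 (adjusted p = 0.516) in clone 1 and -0.0105 (adjusted p = 0.762) in clone 19 (limma). The rise of Rpl22 was thus near in size to the median of its 50 nearest genes (0.28 in clone 1 and 0.27 in clone 19). Its cause was not tested. Rpl7l1, related to a yeast factor of large-subunit assembly, had 32.7, 32.5 and 32.1 RPKM in clone 1, 36.0, 34.6 and 35.8 RPKM in clone 19, against 31.8, 32.6 and 33.4 RPKM in parental cells. It was called higher in clone 19 (0.12 ± 0.025 (SE), adjusted p = 0.00167) and not in clone 1 (-0.0083 ± 0.025 (SE), adjusted p = 0.78), and was the exception on chromosome 17. Its namesake Rpl7 had log2 differences of 0.19 ± 0.037 (SE), adjusted p = 9.22e-04 and 0.044 ± 0.037 (SE), adjusted p = 0.316 (limma, clone 1 and clone 19). Rpl32l at 18.3 ± 1.32 RPKM, 19.3 ± 1.79 RPKM and 18.5 ± 2.11 RPKM and Rpl36al at 6.56 ± 0.987 RPKM, 6.32 ± 0.591 RPKM and 6.45 ± 0.274 RPKM (clone 1, clone 19 and parental; mean ± SD, n = 3 each) were called in neither clone. The same was true of the namesakes Rpl36a, Rpl39, Rpl6 and Rps4x, while Rpl32 was called higher in clone 19 (0.080 ± 0.032 (SE), adjusted p = 0.0464) and Rpl3 lower there (-0.17 ± 0.052 (SE), adjusted p = 0.0141, limma).

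The acidic stalk, made of Rplp0, Rplp1 and Rplp2, recruits the translation factors that split GTP. Rplp0 had 116, 116 and 109 RPKM in clone 1, 109, 106 and 106 RPKM in clone 19, against 102, 103 and 104 RPKM in parental cells, and Rplp1 had 277, 288 and 255 RPKM in clone 1, 242, 249.8 and 252 RPKM in clone 19, against 236, 256 and 249 RPKM in parental cells. Both were called higher in clone 1 (0.14 ± 0.026 (SE), adjusted p = 5.47e-04 and 0.15 ± 0.042 (SE), adjusted p = 0.00918, limma), where Rplp0 did not overlap parental and Rplp1 did so at its lowest library. In clone 19 their differences were 0.055 ± 0.026 (SE), adjusted p = 0.0798 and 0.0062 ± 0.042 (SE), adjusted p = 0.903. Rplp2, the partner of Rplp1 in the stalk, had 62.4, 61.8 and 60.6 RPKM in clone 1, 62.3, 60.8 and 63.0 RPKM in clone 19, against 58.8, 63.7 and 65.6 RPKM in parental cells, overlapping in all groups. Of the 5S particle, Rpl11 was called higher in both clones, with 6.96, 5.98 and 5.89 RPKM in clone 1, 6.77, 6.66 and 6.58 RPKM in clone 19, against 5.52, 5.84 and 5.19 RPKM in parental cells (0.17 ± 0.062 (SE), adjusted p = 0.0301 in clone 1 and 0.25 ± 0.062 (SE), adjusted p = 0.00373 in clone 19, limma), though it is 37.8% unique. Rpl5 had 16.2, 15.3 and 17.0 RPKM in clone 1, 17.3, 16.0 and 17.8 RPKM in clone 19, against 16.5, 15.5 and 16.1 RPKM in parental cells and was called in neither (0.0082 ± 0.047 (SE), adjusted p = 0.881 and 0.085 ± 0.047 (SE), adjusted p = 0.131). The p53 pathway that reads this particle gave mixed values. Cdkn1a, the p53 target that stops the cell cycle, averaged 8.53 ± 0.324 RPKM in clone 1, 6.38 ± 0.417 RPKM in clone 19 and 5.28 ± 0.257 RPKM in parental cells (SD, n = 3 each), and rose in both (0.64, adjusted p = 9.92e-07 and 0.25, adjusted p = 0.00164, limma). Mdm4 fell in both (-0.23 and -0.36). Mdm2 fell in clone 19 (-0.23; 0.0069 in clone 1, not called), Cdkn2a rose in clone 19 (0.15; -0.018 in clone 1, not called), and Trp53 was called lower in clone 1 (-0.15) and higher in clone 19 (0.093). With neighbouring genes subtracted, Trp53 in clone 19 turned to -0.091 (limma adjusted p = 0.0227) and Mdm2 stood at 0.032 there, so neither direction held there.

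Ribosomal proteins whose genes carry other names were read beside them. Rack1, the scaffold on the head of the small subunit, had 1058, 1089.5 and 1064 RPKM in clone 1, 999, 984 and 986 RPKM in clone 19, against 986, 999.9 and 999.7 RPKM in parental cells. It was called higher in clone 1 (0.11 ± 0.016 (SE), adjusted p = 1.22e-04, limma) and not in clone 19 (-0.0076 ± 0.016 (SE), adjusted p = 0.687). Fau, a ubiquitin-like fusion, was lower in clone 19 (-0.14 ± 0.046 (SE), adjusted p = 0.0219; -0.092 ± 0.046 (SE), adjusted p = 0.0947 in clone 1). Mitochondrial ribosomal protein genes, which serve a separate ribosome, had 47 called higher and 16 lower of 78 tested in clone 1, and 41 higher and 16 lower in clone 19, with median log2 differences of 0.15 and 0.12. Lists of genes around the ribosome were counted against the same background of 72.4% called in clone 1 and 69.0% in clone 19. Ribosome biogenesis factors had 28 higher and 15 lower of 53 tested in clone 1 and 23 higher and 21 lower in clone 19. Among them, Pes1 was higher in clone 1 and clone 19 (0.68 and 0.47) and Rrp1b was lower in both (-0.54 and -0.51). RNA polymerase I genes had 7 higher and 4 lower of 14 tested in clone 1 and 7 higher and 3 lower in clone 19. Carriers and chaperones of ribosomal proteins had 8 higher and 2 lower of 16 tested in clone 1 and 4 higher and 4 lower in clone 19. Other messages with a pyrimidine tract, mainly translation factors, had 14 higher and 4 lower of 21 tested in clone 1 and 11 higher and 4 lower in clone 19. The elongation factor Eef2 was lower in both (-0.30 and -0.31), but with neighbouring genes subtracted it was called higher in clone 1 (0.088, adjusted p = 0.00108, limma) and stood at 0.013 in clone 19. In both clones the nucleolar chaperone Npm1 was higher (0.47 and 0.44). Initiation factors had 14 higher and 7 lower of 29 tested in clone 1 and 10 higher and 6 lower in clone 19. The mTOR list had 7 higher and 12 lower of 22 tested in clone 1 and 7 higher and 11 lower in clone 19, mixed in direction on the activating and the inhibiting side. Mtor itself was higher in clone 1 and clone 19 (0.65 and 0.56). Rheb (-0.19 and -0.23), which activates it, Mlst8 (-0.38 and -0.15), its partner, and the effector kinase Rps6kb1 (-0.30 and -0.47) were lower. Larp1 went the other way and was higher in both (0.24 and 0.13). Rptor was called higher in clone 1 (0.13) and not called in clone 19 (0.038). Rps6kb2 was called higher in clone 19 (0.26) and not called in clone 1 (-0.019). On the inhibiting side, Ddit4 (-1.33 and -0.74) and Eif4ebp1 (-0.95 and -0.73) were lower and Sesn3 (0.58 and 0.23) higher. Tsc2 (-0.51 and -0.11), Sesn2 (-0.50 and -0.21) and Eif4ebp2 (-0.44 and -0.39) were lower in both as well. In clone 1 alone, Tsc1 was called lower (-0.14) and Sesn1 higher (0.15). Of the mTOR genes given here, all but Mtor, Ddit4 and Eif4ebp1 were picked after their values were seen. The Myc network had 2 higher and 6 lower of 11 tested in clone 1 and 2 higher and 5 lower in clone 19; Myc was lower (-0.36 and -0.38) and Mycn higher (0.95 and 0.91) in both. Among cell type markers, only 4 of the 12 epithelial ones listed were tested, Krt8, Krt18, Krt19 and Cdh1. Of these 3 were higher and 0 lower in clone 1, and 4 higher and 0 lower in clone 19. The other epithelial ones, Epcam, Cdx1, Cdx2, Cldn4, Cldn7, Lgr5, Vil1 and Krt20, did not pass the filter, and Cdh1 averaged only 0.52, 1.25 and 0.55 RPKM (clone 1, clone 19 and parental). Mesenchymal ones had 4 higher and 5 lower of 9 tested in clone 1 and 3 higher and 6 lower in clone 19. Mesothelial ones had 6 higher and 2 lower of 8 tested in clone 1 and 6 higher and 2 lower in clone 19. The single tested immune or endothelial one was lower in both.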

How the data were processed

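RNA-seq was measured in 9 libraries, 3 in each of 3 groups taken from the sample titles. The authors deposited 1 table of RPKM per gene ID. The submitters' processing notes name GSNAP, DESeq and the build NCBIM37. How reads mapping to several places were treated, and whether counting used strand, is not given in the sources used here. Values are not counts, so no count test was run.

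Gene IDs were named through RefSeq (24998) and GENCODE M21 (15), and 3046 stayed unnamed, among them 114 of the 638 IDs that average over 100 RPKM. Differences were fitted in R 4.3.3 with limma 3.58.1 (trended prior variance) on log2(RPKM + 0.5), over 12568 genes with RPKM of at least 1 in at least 3 libraries, with Benjamini-Hochberg adjustment over all of them and calls at 0.05. On simulated data for clone 1 against parental (12568 genes), 50 genes each were given log2 differences of 0.25, 0.5, 1 and 2. Of those given 0.25, 70% were recovered, and 96% of those given 0.5. In the data 72.4% of genes were called, a far larger share than was changed here. The adjusted p therefore sets a different bar, and these rates cannot be carried over to the data. Library depth is known only roughly, so intervals from counting were not given. Same-numbered libraries deviated together with correlations of -0.035 to 0.12, so replicate numbers were not taken as pairs.

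Start regions, transcripts and gene order came from GRCm38, whose sequence and gene positions may differ from the build the authors used. The genes and lists were chosen with earlier results of these data known. Genes named were every l-suffix copy and its namesake, the stalk and 5S genes, Rpsa, the 5 highest and 5 lowest genes, the 6 largest called differences each way in each clone, the 4 largest between clones, any called in opposite directions, and all that failed the filter; single-gene values of some are not reported here. Alternatives changed the pseudocount, filter, scaling, variance model, replicate block, groups fitted, neighbouring genes and single libraries.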

Additional observations from a re-analysis of the deposited data

Results flagged for a closer look

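Of the 82 tested ribosomal protein genes, 26 differed between clone 19 and clone 1 at a limma adjusted p under 0.05, which is 31.7% against 43.0% of all tested genes. The 17 of them that the naming rule covers are given here. The rule itself picks the largest differences between the clones, so nothing is read from their number. Values are log2 differences, clone 19 minus clone 1. The genes higher in clone 19 were Rps28 (0.58), Rpl10a (0.30), Rps10 (0.29), Rps2 (0.18), Rps18 (0.16), Rpl34 (0.14) and Rpl7l1 (0.13). The genes lower in clone 19 were Rps27a (-0.31), Rpl19 (-0.30), Rpsa (-0.29), Rps23 (-0.23), Rps27l (-0.18), Rpl26 (-0.16), Rplp1 (-0.14), Rpl7 (-0.14), Rpl4 (-0.14) and Rplp0 (-0.08). Since both clones are set against the same parental libraries, these values are also the differences between the clones' 2 contrasts with parental. Rps28, Rpl10a, Rps10, Rps2, Rps18 and Rpl7l1 lie on chromosome 17, where the median of the other tested genes was 0.15. Rpl4, Rplp1, Rps27l and Rpsa lie on chromosome 9, where it was -0.15. Whether the clones differ in anything other than these RNA levels was not tested.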

How the results depend on the processing

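Over all alternatives, 17 of the 43 genes called in clone 1 were called the same way in every one, as were 15 of 41 in clone 19 and 6 of 26 between clones, and 2, 1 and 0 genes were called in the opposite direction in any of them. With the library number as a replicate block, 28 were higher and 14 lower in clone 1, 21 and 20 in clone 19, and 8 and 20 in clone 19 minus clone 1. Over all tested genes 55.17%, 53.35% and 43.34% of the calls were then higher. The labels give no pairing of the samples beyond a shared number. Leaving out 1 library at a time gave 24 to 32 higher and 14 to 15 lower in clone 1, 16 to 21 and 16 to 22 in clone 19, and 5 to 11 and 14 to 20 between clones, the highest of these, 11, without replicate 2 of clone 1. The small-subunit minus large-subunit median then ran from 0.034 to 0.079 in clone 1, from -0.026 to 0.027 in clone 19 and from -0.036 to 0.044 between clones, changing sign in clone 19 and between clones, so no order of the subunits is read from it. The medians ran from 0.030 to 0.062 (large) and 0.068 to 0.11 (small) in clone 1, -0.0050 to 0.031 and -0.0033 to 0.038 in clone 19, and -0.055 to -0.0037 and -0.048 to -0.0027 between clones. Against parental cells, the sign of the subunit medians changed with the scaling, except for the small subunit in clone 1. In clone 1 the large-subunit median was 0.0083 with median-ratio scaling, -0.032 with summed RPKM made equal (-0.033 over other genes only), -0.015 with quantile normalization and -0.0068 with neighbouring genes subtracted. The small-subunit median was 0.018 (0.018) with equal sums and 0.029 with neighbours subtracted. In clone 19 equal sums gave -0.049 (-0.050) for the large and -0.035 (-0.036) for the small subunit, quantile normalization -0.024 and -0.029, and subtracted neighbours -0.0095 for the large. Equal sums, in both forms, left 16 genes called higher in clone 1, quantile normalization left 22 called lower there, and subtracting neighbours left 14 lower in clone 19 and 2 higher and 12 lower between clones. With neighbours subtracted, the log2 difference changed sign for several genes that the naming rule covers. In clone 1 these included Eef2 (0.088), Rpl12 (0.047), Rpl34 (-0.038), Rpl4 (-0.057), Rpl7l1 (0.21) and Taf1c (-0.21). In clone 19 they included Eef2 (0.013), Eif4e (-0.020), Mdm2 (0.032), Rack1 (0.097), Rpl13 (-0.0086), Rpl22 (-0.011), Rpl32 (-0.0045), Rpl8 (-0.076), Rps10 (0.028), Taf1c (-0.030) and Trp53 (-0.091). In clone 19 minus clone 1 they included Npm1 (0.087), Rpl4 (0.017), Rpl7 (0.046), Rpl7l1 (-0.031), Rps18 (-0.046), Rps2 (-0.041) and Rrp1b (-0.12). Of these, Eef2, Rpl4, Rpl7l1 and Taf1c in clone 1, Rack1, Rpl8 and Trp53 in clone 19, and Npm1 and Rrp1b between clones passed the threshold in the new direction. Outside that rule, Rps26 was called lower in both clones before subtraction and higher in both after it. Its values after subtraction were 0.18 (adjusted p = 4.60e-04) in clone 1 and 0.13 (adjusted p = 0.00385) in clone 19 (limma). Quantile normalization turned Rpl13a (-0.083) and Rpl4 (-0.11) in clone 1 and Rpl13a (-0.057) in clone 19. Equal summed RPKM turned Rpl4 (-0.029) and Rpl8 (-0.049) in clone 1 and Rpl8 (-0.046) in clone 19, and equal sums of the other genes turned Rpl4 (-0.030) and Rpl8 (-0.049) in clone 1 and Rpl8 (-0.047) in clone 19. The causes were not tested. Depth limits the genes at a few RPKM, and shared reads limit those with few unique windows.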
